A study of Mus musculus with 6 samples.

Results

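The oligodendrocyte lineage markers described here are 9 genes that mark the steps from oligodendrocyte progenitor to myelinating cell, namely Olig1, Olig2, Sox10, Nkx2-2, Pdgfra, Cspg4, Gpr17, Cnp and Mbp. They were looked up in a table of 32357 loci by position, and a locus was taken for a gene where the overlap of their spans reached 0.5 of their union. By this rule 6 of the 9 had a locus, and Nkx2-2, Gpr17 and Cnp did not. The markers were measured by RNA-Seq in primary cultures of Balb/c mouse cerebral cortex, prepared from E14.5 embryos and grown in medium with serum. The cell suspension was nucleofected before plating with a pSuperneoGFP plasmid for one of 2 shRNAs against Neurod2 (shNeurod2-1 or shNeurod2-2, with 2 libraries each and 4 in all) or for a non-silencing shRNA (2 libraries). The labels place the RNA at 4 days in vitro, and the methods of the study give 5. No sort for transfected cells is described, so the RNA is of the whole dish, which holds neurons, glia and their progenitors. NEUROD2 is a basic helix-loop-helix transcription factor of excitatory cortical neurons, and the study asked which genes depend on it in these cultures.

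In the forebrain, oligodendrocytes arise from progenitors that carry the receptor PDGFRA and the proteoglycan NG2, the product of Cspg4, and that divide in response to platelet-derived growth factor. OLIG2 and OLIG1 are helix-loop-helix factors that set up the lineage, SOX10 keeps it and turns on myelin genes, and NKX2-2 acts as progenitors start to differentiate. GPR17 is a receptor of cells between progenitor and myelinating stage, CNP is an enzyme of early oligodendrocytes and of the non-compact myelin, and MBP is the protein that holds the membranes of compact myelin together. The first progenitors of the cortex are born in the ventral forebrain and migrate in, and later ones are born in the cortex itself.

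For each locus the authors' table gave 1 FPKM value for the knockdown group and 1 for the non-silencing group (fragments counted per kilobase of transcript, with library size taken into account). Each value pools the libraries of its group, so the spread between libraries, the depth behind a value and the effect of each shRNA alone are unknown. All comparisons below are therefore between 2 pooled values, with no SD and no test of significance. Neurod2 itself was at 60.3 FPKM in the knockdown, against 104.8 FPKM in the non-silencing group, a log2 ratio of -0.80. The table holds 13498 loci that the authors' software had enough reads to test, and both values were known and above 0 at 13372 of them.

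Promoter sequences are shown for the markers with a table locus that RefSeq (GRCm38.p6) covers in the reference used here, so that the motif bound by helix-loop-helix factors such as NEUROD2 can be looked for. RefSeq promoters matched 5 of the 9 markers, and 3 of those had a table locus, Pdgfra, Cspg4 and Olig2. The window searched was the 250 bases before the RefSeq start. Printed are the bases of it that lie before the GENCODE start as well, read 5′ to 3′ on the + strand, at chr5:75152001-75152250 for Pdgfra, chr9:56864854-56865032 for Cspg4 and chr16:91225300-91225456 for Olig2. Capitals mark the E-box CANNTG, the general helix-loop-helix motif.
Pdgfra: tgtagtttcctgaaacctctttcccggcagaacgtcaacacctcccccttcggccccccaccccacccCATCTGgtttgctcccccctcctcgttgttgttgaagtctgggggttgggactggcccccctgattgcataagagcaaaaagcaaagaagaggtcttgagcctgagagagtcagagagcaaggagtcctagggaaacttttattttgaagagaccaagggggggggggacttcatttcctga
Cspg4: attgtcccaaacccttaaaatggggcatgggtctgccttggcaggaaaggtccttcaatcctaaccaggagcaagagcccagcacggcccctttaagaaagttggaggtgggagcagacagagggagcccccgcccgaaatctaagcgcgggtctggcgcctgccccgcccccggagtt
Olig2: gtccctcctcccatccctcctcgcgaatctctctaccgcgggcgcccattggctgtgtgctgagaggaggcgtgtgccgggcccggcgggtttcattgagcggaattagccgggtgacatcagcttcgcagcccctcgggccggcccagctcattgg
The Pdgfra window held 1 E-box, CATCTG, whose first base lies 182 bases before the start. The Cspg4 and Olig2 windows held 0 each over all 250 bases. The same search, over both strands since CANNTG is its own reverse complement, found an E-box in 66.2% of 32851 promoter windows of 27025 genes. CAGATG or CATCTG, which are reverse complements of each other, stood in 14.4% of the windows, and CAGCTG in 13.0%. The Olig2 window had 66.8% G and C, that of Cspg4 60.4% and that of Pdgfra 54.4%, against a median of 52.4% over all windows. A match of these letters describes the window and is not a site of binding.

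The 6 markers with a locus spanned a wide range of levels in both groups. From high to low, the order was Olig1, Olig2, Pdgfra, Mbp, Sox10 and Cspg4 in the knockdown and in the non-silencing group alike. Whether neighbours in this order differ beyond the spread between libraries cannot be judged from pooled values. Olig1 had a mean of both groups higher than 88.4% of the tested loci, and Cspg4 higher than 12.4%.

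**Figure D1:**
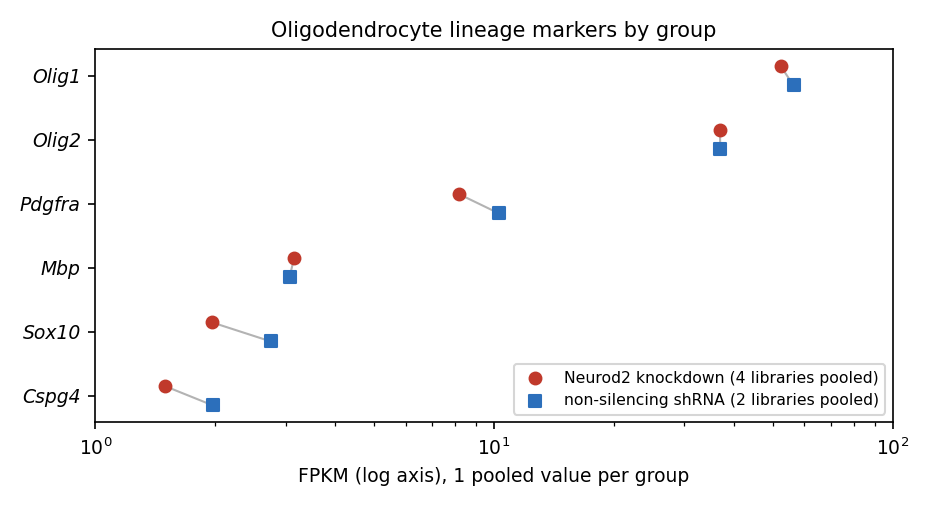
FPKM of the 6 markers with a table locus, on a log axis, with 1 pooled value for the knockdown (circles) and 1 for the non-silencing group (squares). Olig1 and Olig2 lie between 36.9 and 56.4 FPKM and the circles of Pdgfra, Sox10 and Cspg4 lie left of their squares.

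The factors that found the lineage had nearly the same level in both groups. Olig2, annotated at chr16:91225457-91228677 on the + strand (mm10, 2 exons, of which 1 is coding), was at 36.9 FPKM in the knockdown and at 36.9 FPKM in the non-silencing group, a difference of -0.13% of the non-silencing value. Its neighbour Olig1 lies 41.094 kb further along the same strand at chr16:91269772-91271933 as a single exon. Olig1 was at 52.4 FPKM in the knockdown, against 56.4 FPKM in the non-silencing group, a log2 ratio of -0.11. A lincRNA gene, Gm15966, overlaps Olig1, and reads from the overlap cannot be assigned to one of them, since strand is not stated. Olig1 was 1.42 times Olig2 in the knockdown and 1.53 times Olig2 in the non-silencing group, on the FPKM scale. The ratio of Olig2 is so close to 0 on the log2 scale that its sign depends on the scaling: it was -0.0018 as deposited and 0.0295 after centring on the median of all loci.

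Sox10 had the lowest ratio of the 6 markers. The gene lies at chr15:79154908-79165240 on the - strand, with 5 exons of which 3 are coding. It was at 1.96 FPKM in the knockdown, against 2.76 FPKM in the non-silencing group, a log2 ratio of -0.49. This is 1.41-fold lower in the knockdown and less than the 1.5-fold at which the study set its threshold. With 1 FPKM added to both values, the log2 ratio was -0.35. On the FPKM scale Olig2 was 18.8 times Sox10 in the knockdown and 13.4 times Sox10 in the non-silencing group.

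The other progenitor factor, Nkx2-2, could not be read on its own. The gene is annotated at chr2:147177546-147194243 on the - strand, inside a table locus of 3 entries that reaches from 147177545 to 147331681 and also holds the antisense genes Nkx2-2os and 6430503K07Rik. Their overlap with the gene was 0.108 of the union. Which of the 3 is Nkx2-2 is not given. None had been tested, and the highest of the 3 was at 0.0974 FPKM in the knockdown and 0.260 FPKM in the non-silencing group, so every candidate value for Nkx2-2 was under 0.3 FPKM.

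Both surface markers of progenitors were at lower values in the knockdown. Pdgfra, the receptor for platelet-derived growth factor AA, lies at chr5:75152292-75198215 on the + strand with 23 exons. It was at 8.17 FPKM in the knockdown, against 10.3 FPKM in the non-silencing group, a log2 ratio of -0.33. The non-silencing value of Pdgfra is a restored one, as a spreadsheet had turned the cell into a time, and the values of the other 5 markers were intact. Cspg4, at chr9:56865033-56899870 on the + strand with 10 exons, was at 1.498 FPKM in the knockdown, against 1.97 FPKM in the non-silencing group, a log2 ratio of -0.40. With 1 FPKM added to both values the log2 ratios were -0.30 for Pdgfra and -0.25 for Cspg4. The antisense gene Gm42802, Gm42803 and the microRNA gene Mir7025 overlap Pdgfra, and their part in its values was not tested. The level of Pdgfra was 5.46 times that of Cspg4 in the knockdown and 5.22 times in the non-silencing group. Cspg4 and Pdgfra are also known from cells outside the lineage, Cspg4 from mural cells of vessels and Pdgfra from fibroblasts.

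Gpr17 shares its position with another gene. It is annotated at chr18:31942997-31949636 on the - strand, within the span of Lims2, and the 2 table entries at this place run from 31931506 to 31958619, with an overlap of 0.245 of the union. The tested entry was at 0.781 FPKM in the knockdown, against 1.06 FPKM in the non-silencing group, a log2 ratio of -0.44. The entry that was not tested was at 0.204 FPKM in the knockdown and at 0.185 FPKM in the non-silencing group, a log2 ratio of 0.14. Which entry holds Gpr17 is not known, and the 2 differ in direction.

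The myelin genes among the markers were almost level between the groups. Mbp was at 3.15 FPKM in the knockdown, against 3.07 FPKM in the non-silencing group, a log2 ratio of 0.04. Its locus at chr18:82475146-82585637 on the + strand holds more than myelin. Of 16 annotated transcripts, 4 start at the gene start and 12 start 79.3 to 88.1 kb further on. The long transcripts from the first start encode the golli proteins, which neurons and immune cells also make, and the later starts give the classic myelin basic proteins. The table holds 1 value for all of them, so the level of Mbp cannot be assigned to oligodendrocytes alone. A processed pseudogene, Rpl21-ps8, also overlaps Mbp, and its part in the level was not tested.

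For Cnp the annotated gene, chr11:100574904-100591729 on the + strand, is longer than the table locus at its start. That locus, from 100574938 to 100581739, reached 0.404 of the union with the gene and stayed under the limit, but 0.993 with the single coding transcript of Cnp, which ends at 100581728. It was at 6.75 FPKM in the knockdown, against 6.88 FPKM in the non-silencing group, a log2 ratio of -0.03. The second locus that touches the gene, at 43.8 FPKM in the knockdown and 49.1 FPKM in the non-silencing group, reached only 0.197 of the union and lies over Dnajc7. Among the members taken in, the smallest overlap was that of Sox10 at 0.929.

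**Figure D2:**
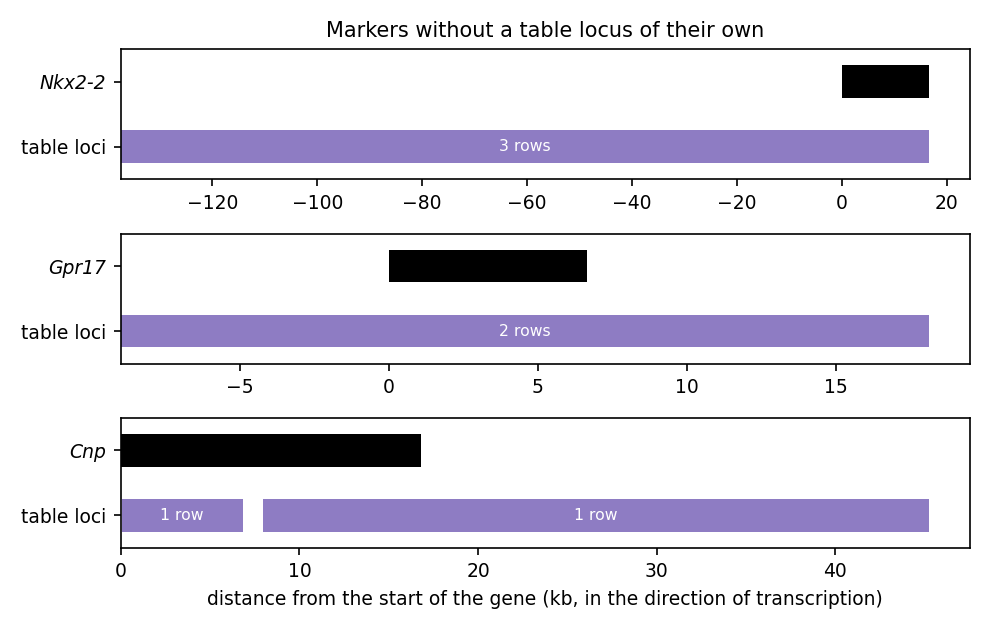
Span of Nkx2-2, Gpr17 and Cnp (black) and of the table loci that overlap them (purple, with the number of table entries at that position), by distance from the start of the gene in kb. The locus around Nkx2-2 and that around Gpr17 run far beyond the gene, and the span of Cnp is divided between 2 loci.

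Among all loci, the ratios of Sox10, Cspg4 and Pdgfra lay low, and those of Olig1, Olig2 and Mbp lay nearer the middle. Past 1.5-fold, 0 of the 6 markers were lower in the knockdown and 0 were higher, where 2.43% of the 13372 loci were lower and 2.09% were higher. Past a smaller fold, a log2 ratio of 0.32 in either direction, 3 of the 6 were lower (Sox10, Cspg4 and Pdgfra) and 0 were higher, where 6.39% of all loci were lower and 5.45% were higher. Pdgfra fell short of this limit after centring (-0.30), and both Pdgfra (-0.30) and Cspg4 (-0.25) did with 1 FPKM added. The median log2 ratio of the 6 was -0.22, against -0.03 over the 12601 loci with a mean of at least 1 FPKM, whose ratios had an SD of 0.32 across loci. Below 0 were 5 of the 6 ratios as deposited, where 58.0% of those loci lay under the -0.0018 of Olig2. After centring on that median, which puts as many loci below 0 as above it, 4 of the 6 were below 0. Of those loci, 2.60% had a lower ratio than Sox10, 3.76% than Cspg4 and 5.23% than Pdgfra, and 30.2%, 58.0% and 68.4% than Olig1, Olig2 and Mbp. In bulk RNA, fewer cells of a type and less RNA per cell cannot be told apart.

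The width of the background differed with level. Among 3131 loci with a mean of 1 to 5 FPKM, as for Sox10, Cspg4 and Mbp, the central 90% of log2 ratios ran from -0.43 to 0.45, and 9.17% were lower than -0.32. Sox10 lay just outside this range and Cspg4 just inside it. Among 5076 loci with a mean of 5 to 20 FPKM, as for Pdgfra, the range was -0.27 to 0.21 and 3.33% were lower than -0.32. Pdgfra lay outside this range at -0.33. Among 3647 loci with a mean of 20 to 100 FPKM, as for Olig1 and Olig2, the range was -0.28 to 0.17, and both genes lay well within it. These ranges describe the spread across loci and not that between libraries.

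**Figure D3:**
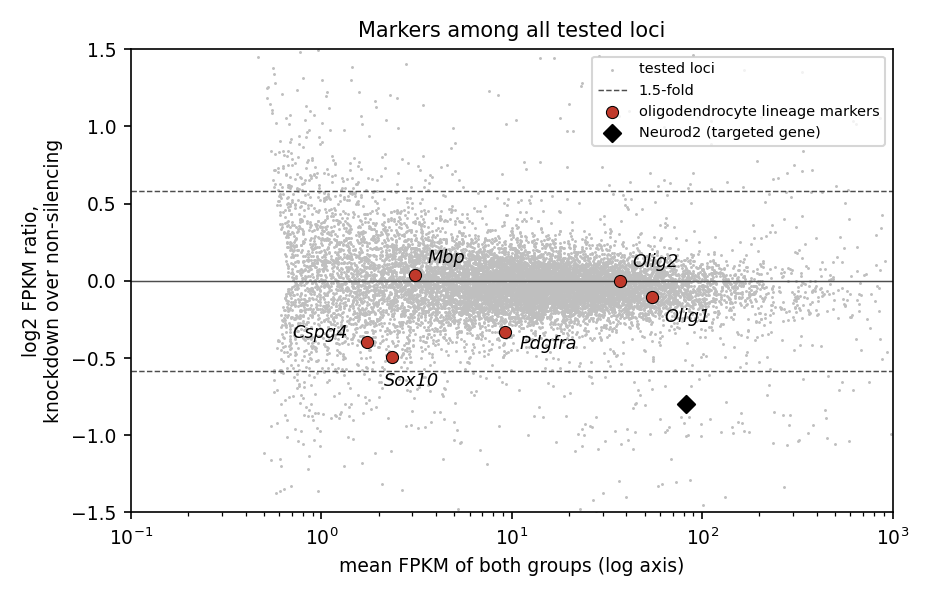
Log2 FPKM ratio of knockdown over non-silencing against the mean FPKM of both groups (log axis) for the tested loci (grey), the 6 markers (red) and Neurod2 (black), with dashed lines at 1.5-fold and 173 loci outside the axes not drawn. Sox10, Cspg4 and Pdgfra lie below 0 at -0.49, -0.40 and -0.33 but inside the dashed lines, and Olig1, Olig2 and Mbp lie near 0.

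Other genes of the lineage were read in 6 lists of 58 genes, of which 48 had a locus that could be taken and 31 a tested one. Past 1.5-fold, 0 of the 31 were lower in the knockdown and 1 was higher, where 2.43% of all loci were lower and 2.09% were higher. That gene, Tcf7l2, a Wnt pathway factor that oligodendrocytes need as they differentiate, is named after its values were seen: it was at 1.18 FPKM in the knockdown, against 0.727 FPKM in the non-silencing group, a log2 ratio of 0.70. It was no longer past 1.5-fold with 1 FPKM added. Of the 31 ratios, 19 were below 0 and 12 above, where 58.0% of all loci with a mean of at least 1 FPKM lay under -0.0018. The median of the 27 genes with a mean of at least 1 FPKM was -0.05, near the -0.03 of all loci.

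Transcription factors that act with the OLIG and SOX10 proteins had ratios on both sides of 0, of which only that of Tcf7l2, already given, was past 1.5-fold. In this list 14 of 16 genes had a locus and 11 were tested, with 6 ratios below 0 and 5 above. Id2, an inhibitor of helix-loop-helix factors that holds back differentiation, was at 202.0 FPKM in the knockdown, against 202.5 FPKM in the non-silencing group, a log2 ratio of -0.0039. Hes5, a Notch target with the same effect, was at 60.7 FPKM in the knockdown, against 65.2 FPKM in the non-silencing group (log2 ratio -0.10). Id2 and Hes5 are not limited to the lineage, and neural progenitors and astrocytes use them too. Myrf, which turns on myelin genes in differentiating oligodendrocytes, was not tested and was at 0.226 FPKM in the knockdown and 0.173 FPKM in the non-silencing group.

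The main ligand of PDGFRA was nearer to level than its receptor. Pdgfa, the main ligand that progenitors meet in the brain, was at 9.96 FPKM in the knockdown, against 10.6 FPKM in the non-silencing group, a log2 ratio of -0.09. Pdgfc, another ligand of the receptor, was at 3.54 FPKM in the knockdown, against 3.15 FPKM in the non-silencing group (log2 ratio 0.17). Pdgfrb, the other PDGF receptor, found mainly on mural cells, was at 1.38 FPKM in the knockdown, against 1.56 FPKM in the non-silencing group (log2 ratio -0.18). All 4 genes of this list with a locus that could be taken were tested, 2 with ratios below 0 and 2 above. The largest ratio was that of Pdgfd, a ligand of PDGFRB, singled out after its values were seen: it was at 0.752 FPKM in the knockdown, against 0.510 FPKM in the non-silencing group (log2 ratio 0.56), a mean under 1 FPKM.

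Sonic hedgehog signalling, which induces Olig2 in ventral progenitors, showed ratios on both sides of 0. Of 6 genes 5 were tested, 2 below 0 and 3 above. Smo, the signal transducer, was at 13.1 FPKM in the knockdown, against 13.3 FPKM in the non-silencing group (log2 ratio -0.01). Ptch1, the receptor and a target of the pathway, was at 13.1 FPKM in the knockdown, against 12.3 FPKM in the non-silencing group (log2 ratio 0.09). The transcription factor Gli3, which is mainly a repressor where the signal is absent, was at 6.02 FPKM in the knockdown, against 5.70 FPKM in the non-silencing group (log2 ratio 0.08). The largest ratio of the list, singled out after its values were seen, was that of Gli1. It was at 2.05 FPKM in the knockdown, against 1.68 FPKM in the non-silencing group (log2 ratio 0.29). Of all loci with a mean of at least 1 FPKM, 95.2% had a lower ratio than Gli1. The hedgehog ligand gene Shh had no locus by the overlap rule.

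Other surface and matrix genes of progenitors had ratios mostly below 0, as had most loci, by differences of unequal size. Of 10 genes 6 were tested, with 5 ratios below 0 and 1 above. Of all loci with a mean of at least 1 FPKM, 58.0% had a ratio under the -0.0018 of Olig2. Ptprz1, a phosphatase that binds matrix, was at 101.9 FPKM in the knockdown, against 97.1 FPKM in the non-silencing group (log2 ratio 0.07). Cspg5 and Bcan are chondroitin sulfate proteoglycans that astrocytes or neurons make as well. Cspg5 was at 49.0 FPKM in the knockdown, against 52.9 FPKM in the non-silencing group (log2 ratio -0.11). Bcan was at 33.9 FPKM in the knockdown, against 36.4 FPKM in the non-silencing group (log2 ratio -0.10). Of the same loci, 29.2% had a lower ratio than Cspg5, 31.2% than Bcan, 2.79% than C1ql1 and 3.87% than Tmem100. The 2 lowest ratios of the list, singled out after their values were seen, were those of C1ql1, a secreted C1q-like protein, at 2.43 FPKM in the knockdown, against 3.38 FPKM in the non-silencing group (log2 ratio -0.48), and of Tmem100, a membrane protein, at 2.95 FPKM in the knockdown, against 3.87 FPKM in the non-silencing group (log2 ratio -0.39).

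Most genes of premyelinating cells and of later myelin were under 1 FPKM in both groups or had no locus that could be taken, with Sirt2 and Mog well above that. Of 9 premyelinating genes 3 were tested. Sirt2, a deacetylase of the myelin sheath that other brain cells also make, was at 17.1 FPKM in the knockdown, against 17.7 FPKM in the non-silencing group (log2 ratio -0.05). Ugt8a, which makes the galactolipid of myelin, was at 1.96 FPKM in the knockdown, against 1.85 FPKM in the non-silencing group (log2 ratio 0.08). By the overlap rule Lims2, counted here as the third, took the tested entry at the position it shares with Gpr17, whose values were given there, and this entry may hold either gene. Of 12 later myelin genes 11 had a locus and 2 were tested. Mog, a surface protein of myelin, was at 5.20 FPKM in the knockdown, against 5.42 FPKM in the non-silencing group (log2 ratio -0.06). The 9 that were not tested included Mag, a receptor-like protein of the innermost myelin layer, at 0.0170 FPKM in the knockdown and 0.0144 FPKM in the non-silencing group. Opalin was listed at 0 in both groups, and Mal and Aspa were listed at 0 in the non-silencing group and under 0.02 FPKM in the knockdown.

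**Figure D4:**
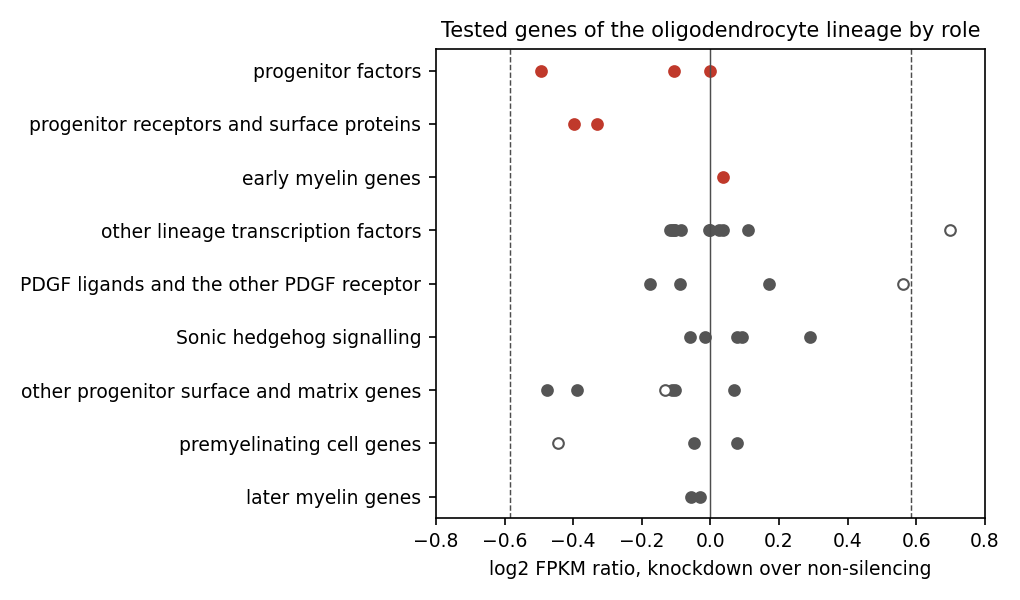
Log2 FPKM ratio of knockdown over non-silencing for the tested genes of the lineage by role, with the markers in red, other genes in grey, open circles for a mean under 1 FPKM and dashed lines at 1.5-fold. Among the red points Sox10, Cspg4 and Pdgfra stand apart from 0, and in the other lists most points lie within 0.2 of it, with Tcf7l2 the open circle at 0.70.

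Markers of the labelled tissue and of other cell types the dish can hold were read beside the lineage. Neuron markers (5 of 5 with a locus that could be taken) summed to 1561 FPKM in the knockdown and 1456 FPKM in the non-silencing group. Of their ratios 4 were above 0 and 1 below, that of Rbfox3, at 10.1 FPKM in the knockdown and 10.8 FPKM in the non-silencing group. Radial glia markers (3 of 5) summed to 1387 FPKM in the knockdown and 1221 FPKM in the non-silencing group. The higher sum came from Fabp7, a fatty acid binding protein, at 1227 FPKM in the knockdown and 1057 FPKM in the non-silencing group, and the other 2 ratios of this list were below 0. Astrocyte markers (5 of 6) summed to 232.1 FPKM in the knockdown and 246.2 FPKM in the non-silencing group. The lower sum came from Gfap, the intermediate filament of astrocytes, at 35.1 FPKM in the knockdown and 57.4 FPKM in the non-silencing group, while Slc1a3, a glutamate transporter, was at 90.4 FPKM in the knockdown and 87.5 FPKM in the non-silencing group and Aldoc, a glycolytic enzyme, at 76.5 FPKM in the knockdown and 69.9 FPKM in the non-silencing group. Each of these 3 sums was above that of the 6 oligodendrocyte lineage markers in both groups. Interneuron markers (3 of 6) summed to 3.85 FPKM in the knockdown and 4.16 FPKM in the non-silencing group. Of these, Gad2 was at 2.18 FPKM in the knockdown and 2.49 FPKM in the non-silencing group. The other genes, each with a mean under 1 FPKM, went in opposite directions. Dlx5 was at 0.622 FPKM in the knockdown and 1.00 FPKM in the non-silencing group, and Lhx6 at 1.05 FPKM in the knockdown and 0.666 FPKM in the non-silencing group. Of the cells outside the lineage that can carry Cspg4 or Pdgfra, mural cell markers (4 of 5) summed to 8.19 FPKM in the knockdown and 7.51 FPKM in the non-silencing group. Fibroblast markers (4 of 4) summed to 3.44 FPKM in the knockdown and 2.01 FPKM in the non-silencing group. The fibroblast sums differed through the collagen genes Col1a1 and Col3a1, and the mural sums through Rgs5, a regulator of G protein signalling, while Notch3, a receptor of mural cells, was at 3.24 FPKM in the knockdown and 3.38 FPKM in the non-silencing group. Markers of Schwann cells (4 of 4), which share Sox10 and Mbp with oligodendrocytes, summed to 7.55 FPKM in the knockdown and 7.17 FPKM in the non-silencing group, of which Pmp22, which other cells also make, gave 6.61 FPKM in the knockdown and 6.12 FPKM in the non-silencing group. Microglia markers (2 of 5) summed to 0.365 FPKM in the knockdown and 0.147 FPKM in the non-silencing group. Endothelial markers (4 of 5) summed to 0.330 FPKM in the knockdown and 0.155 FPKM in the non-silencing group. Listed at 0 were only Kcnj8 of the mural and Cldn5 of the endothelial markers with a locus that could be taken, both in the non-silencing group. The part of these cell types in the values of the lineage markers was not tested.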

How the data were processed

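RNA-Seq was made from 6 libraries, 4 with Neurod2 knockdown and 2 with a non-silencing shRNA, as 50 bp single-end reads. The authors used TopHat for mapping (mm10), Cufflinks for assembly and Cuffdiff for the comparison. Not given in the sources used here are their versions, settings and annotation and whether libraries were stranded. In the deposited table each locus has 1 pooled FPKM value for each group, scaled for length and library size by the authors, and depth per library is unknown. Whether libraries came from separate cultures is not stated. It also holds the authors' own log2 fold change, a test statistic (a score), a p-value and a q-value, of which none is reported. Values were used as the authors deposited them, and the planned comparison was a description without test.

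A spreadsheet had turned many cells into times. The possible numbers behind each were listed, and a pair was kept where its ratio matched the deposited log2 fold change within 2e-05, the only use made of that column. This restored 4862 tested loci and left 42 unread. On 3858 simulated loci, it restored 99.4%, left 0.57% unread and got 0 wrong. The simulated loci were varied from restored ones and altered by the same time rule that the step undoes. They therefore cannot show whether that rule holds for the real cells. Loci took the name of a GENCODE M21 (GRCm38) gene at an overlap of at least 0.5 of the union. Among several loci, the one with the largest overlap was taken, and among equal ones the only tested one. A gene for which no single locus could be taken in this way, or whose values were unread, was counted as without a locus. Log2 ratios were knockdown over non-silencing with no pseudocount, and "past 1.5-fold" is a fold of the 2 values. Background shares are over tested loci with both values above 0.

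Genes named were all markers, Neurod2 and, in each list, the 3 with the highest mean and any past 1.5-fold with a mean of at least 1 FPKM. Others named are additions, and a few genes of the lists are not reported here. The members and lists were chosen with earlier results of these data known. Alternatives were pseudocounts of 0.1 and 1, centring, only intact cells, an overlap of 0.8, summed loci, folds of 2 and of 0.32 on the log2 scale, a minimum mean of 1 FPKM and, added after seeing the data, the span of a coding transcript. Python 3.11.15, pandas 2.3.3, numpy 2.4.6 and matplotlib 3.10.9 were used.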

Additional observations from a re-analysis of the deposited data

How the results depend on the processing

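Each ratio of the 6 markers was computed again under up to 7 alternatives, 41 values in all. Of these, 40 kept their direction, 1 changed sign and 0 went past 1.5-fold. The sign changed for Olig2, at 0.0295 on the log2 scale after centring on the median of all loci, its ratio as deposited being -0.0018 and the median -0.0314. Markers lower in the knockdown were 0 past 1.5-fold and 3 past the smaller fold (a log2 ratio of 0.32), and other lineage genes lower were 0 and 3 of 31 at the same limits, against 2.43% and 6.39% of all loci. Those 3 include the entry shared by Lims2 and Gpr17. Among the markers, Pdgfra fell short of the smaller fold after centring (-0.30), and both Pdgfra (-0.30) and Cspg4 (-0.25) did with a pseudocount of 1. The number of other lineage genes higher, 1 past 1.5-fold, was 0 with a pseudocount of 1, 0 past 2-fold and 0 with a mean of at least 1 FPKM, and it was 2 after centring, 2 with summed loci and 2 past the smaller fold. The median log2 ratio of the markers, -0.22, was -0.18 with a pseudocount of 1, -0.19 after centring and -0.11 with intact cells only, where Pdgfra drops out. With the span of 1 coding transcript, chosen after seeing the data, Cnp came in at -0.03 and the median was -0.11.

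No paired analysis was possible because the table holds 1 pooled value per group, and for the same reason leaving out single libraries was not possible. No difference between the groups was set against the spread between libraries, nor one shRNA against the other.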

Other observations

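Among the later myelin genes, Mog stood apart in level. At 5.20 FPKM in the knockdown and 5.42 FPKM in the non-silencing group it was above Mbp, which was at 3.15 FPKM in the knockdown and 3.07 FPKM in the non-silencing group. Mag was at 0.0170 FPKM in the knockdown and 0.0144 FPKM in the non-silencing group, and Mobp at 0.0463 FPKM in the knockdown and 0.0479 FPKM in the non-silencing group. MOG appears late on the outer face of myelin, so its level beside near-absent Mag and Mobp is a value to look at again. The Mog entry has a restored cell, and a small RNA gene, Gm22388, is annotated inside Mog on the opposite strand. Their part in its level was not tested.

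Olig2 and Sox10, which mark the same cells later in the lineage, had levels that differed by 18.8 times in the knockdown and 13.4 times in the non-silencing group, and Olig1 lay above Olig2 in both. Bcas1 and Enpp6, which mark newly formed oligodendrocytes, added nothing to this. Bcas1 was counted as without a locus, though 2 table entries overlapped it and the largest overlap, 1 of the union, met the limit. Enpp6 was at 0.0350 FPKM in the knockdown and listed at 0 in the non-silencing group.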
